A study of Mus musculus with 2 samples.

Results

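Imprinted noncoding transcripts of the Dlk1-Meg3 region of mouse chromosome 12 and of the Snord116 cluster of chromosome 7 were followed in nasal mucosa 3 days after papain and 3 days after phosphate-buffered saline (PBS). The 5 genes were Meg3, Rian, Mirg, Dlk1 and Snord116l1, of 23981 gene symbols in the array's annotation. They were taken as every row of the deposited table whose annotation names 1 of them, alone or with other genes. This gave 25 of 41345 rows. A row is a transcript cluster, a group of probes read out as 1 value. Rows with the same pair of values were counted once, which left 10 rows of 40541. The genes were chosen by the difference between the papain and PBS signals of some of these rows, so every papain against PBS value given for them is a description and supports nothing further.

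The samples were total RNA of nasal mucosa from C57BL/6 mice aged 4 to 6 weeks. Papain, a cysteine protease of papaya used as a model allergen, was given to one group and PBS, the vehicle, to the other. One GeneChip Mouse Gene 2.0 ST array was run per group. Per the design text 4 samples made up a pooled specimen. A pool cannot show how animals varied, and with 1 array per group no test, p-value or replicate error could be had.

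In an imprinted region, the copy from one parent is expressed and the copy from the other parent is mostly silent. Meg3, Rian and Mirg are long noncoding RNAs that lie in a row and are expressed from the maternal copy, and they host many microRNAs and small nucleolar RNAs (snoRNAs). Dlk1, a membrane protein related to the Notch ligands, is expressed from the paternal copy of the same region. Snord116 genes are a repeated family of C/D box snoRNAs made from the introns of a long paternal transcript, and loss of the human cluster is linked to Prader-Willi syndrome. Both noncoding groups are well known from neurons.

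All values are log2 signals, and a ratio is the papain value minus the PBS value on that scale. The arrays had median signals of 5.70 and 5.64. Background level was the median of 29 measured genes of other tissues, 5.03 after papain and 5.06 after PBS, and the 95 percentile of these genes over both arrays was 6.55. Odf1, 1 of the 29, was bright at 10.48 after papain and 10.91 after PBS and was kept in these values. A fold whose lower signal lies under 6.55 is of uncertain size. The spread of 1 row's ratio, from 1073 genes with more than 1 row, had an SD of 0.33. Rows of 1 gene can read different transcripts, so this SD mixes such differences with probe error. It measures neither arrays nor animals. Obp2a, an odorant-binding protein gene of nasal glands, read 13.64 and 13.58, and Omp, the marker of mature olfactory neurons, read 9.87 and 9.94, so genes that define the labelled tissue were bright in both arrays. Such bulk values cannot tell fewer cells of a type from less RNA per cell.

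Rian, Snord116l1 and a pair of Meg3 rows were higher in the papain array, while Mirg, Dlk1 and the remaining Meg3 row had near-equal signals. These near-equal signals were all under 6.55, so they do not show an unchanged transcript. Of the 10 rows, 5 were higher after papain by 2-fold or more, 0 were lower by as much, and 5 had a smaller difference. The background for that count was 2.59% of all 40541 rows higher and 1.86% lower by this fold, and nothing is read from the difference because the choice of genes used the same contrast. Among 7382 other rows with a mean signal from 5.5 to 6.5, which takes in 4 of the 5 high rows, 2.64% were past 2-fold upwards and 1.34% downwards. The rows just inside and just outside the threshold were both of Meg3, at 1.15 and 0.30, and no row lay between them. The median ratio of the 10 rows was 0.73, against -0.02 over all rows.

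**Figure D1:**
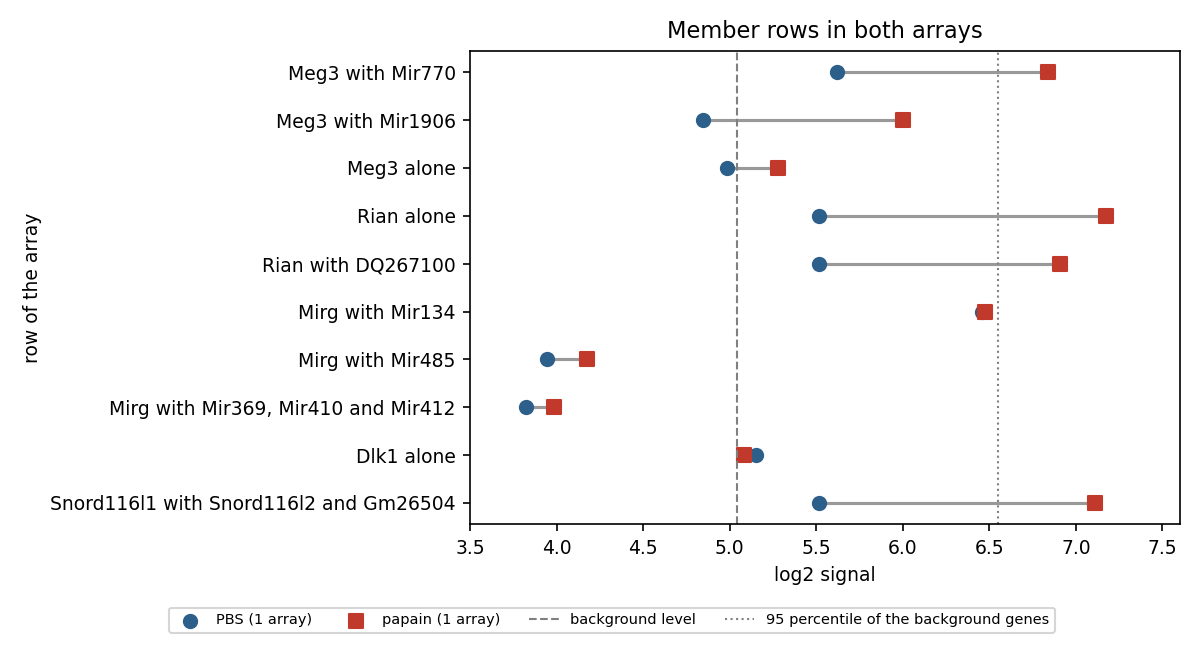
The log2 signal of the 10 rows (x axis) in the PBS array (circles) and the papain array (squares), with background level and the 95 percentile of the background genes as vertical lines. The 5 rows past 2-fold have long connecting lines, such as Rian from 5.51 to 7.17, while the 3 Mirg rows and the Dlk1 row have short ones.

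Meg3, the first noncoding RNA of the maternal unit, had 3 rows that differed from each other. The row it shares with Mir770, a microRNA gene in Meg3, read 6.84 after papain and 5.62 after PBS, which is 2.33-fold higher. The row it shares with the Mir1906 genes read 6.00 and 4.84, or 2.23-fold higher, from a PBS signal under background level. The row that names Meg3 alone read 5.28 and 4.98, a ratio of 0.30, within the spread of a single row. The 3 ratios had a mean of 0.89 and an SD of 0.52 over rows.

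The place of these rows in the array's numbering differed too. Row numbers follow the genome closely: the next placed single-gene row was on the same chromosome and strand in 92.3% of 18379 steps, with gene places from RefSeq. All 26 placed neighbours of the row shared with Mir770 were on the plus strand of chromosome 12, where RefSeq puts Meg3. For the row that names Meg3 alone, 18 of 25 neighbours were on the minus strand of chromosome 12. It opens a run of 6 rows that ends with Mir409 and includes one of Rtl1, a retrotransposon-derived gene, and their ratios ran from -0.07 to 0.33. The row with the Mir1906 genes had 24 of 25 neighbours on the minus strand of chromosome X, and RefSeq holds 1 Mir1906 copy in the Meg3 region and 1 on chromosome X. From which transcript either of these rows takes its signal cannot be told apart here.

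The start of Meg3 and that of Dlk1 are shown because these neighbours on 1 strand had different ratios, though both Dlk1 signals lie at background level. Both are RefSeq promoter windows of build GRCm38.p6, plus strand, from 250 bases before to 50 bases after a start, at chr12:109540746-109541045 for Meg3 and chr12:109452573-109452872 for Dlk1. Capitals mark TGACGTCA (the cAMP response element), TATAAA (the TATA box) and CCAAT, each searched on both strands.
Meg3: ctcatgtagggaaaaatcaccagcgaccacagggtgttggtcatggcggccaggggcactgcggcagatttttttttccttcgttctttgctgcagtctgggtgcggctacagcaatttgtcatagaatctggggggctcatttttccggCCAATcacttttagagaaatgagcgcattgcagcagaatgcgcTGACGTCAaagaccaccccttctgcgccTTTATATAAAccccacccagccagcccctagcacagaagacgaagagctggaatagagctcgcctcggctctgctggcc
Dlk1: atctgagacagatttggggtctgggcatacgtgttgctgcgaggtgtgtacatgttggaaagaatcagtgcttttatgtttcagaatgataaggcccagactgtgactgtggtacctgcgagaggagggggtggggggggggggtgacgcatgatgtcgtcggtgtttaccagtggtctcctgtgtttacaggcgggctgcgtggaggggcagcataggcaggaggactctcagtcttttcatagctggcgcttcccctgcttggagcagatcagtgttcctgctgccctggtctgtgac
The Meg3 window held 1 TGACGTCA, 1 CCAAT and 2 matches of TATAAA, 1 on each strand, which overlap. The Dlk1 window held 0 of each. Of 32851 promoter windows of this length, 1.79% held TGACGTCA, 13.6% TATAAA and 37.4% CCAAT, on either strand. The windows had 13 and 9 CpG sites, against a median of 7, and a GC content of 53.7% and 55.7%. RefSeq lists another Meg3 start, whose window held 0 of the 3 motifs and 1 CpG site. The window of Rian, the member with the highest ratio, held 0 of the 3 motifs and 0 CpG sites. That of Mirg held 1 CCAAT, 0 of the other motifs and 10 CpG sites. Any link of these letters to the ratios was not tested. Letters in a window are no evidence that a factor binds there.

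Rian, the next maternal noncoding RNA and the host of a snoRNA cluster, had the highest ratio of the 10 rows. The row that names it alone read 7.17 after papain and 5.51 after PBS, a 3.16-fold higher signal. A separate row, shared with the snoRNA gene DQ267100, read 6.91 and 5.52, or 2.62-fold higher. Both rows were near the middle of the PBS array, above 47.1% and 47.3% of its rows, and above 75.3% and 71.4% of those of the papain array. Their PBS signals lie between background level and 6.55, so the size of both folds is uncertain. The 2 rows share a transcript and are not replicates.

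Mirg, the noncoding RNA at the far end that hosts a dense group of microRNAs, showed near-equal signals. Its row with Mir134 read 6.48 after papain and 6.46 after PBS, the brightest PBS signal of the 10 rows. Its row with Mir485 read 4.17 and 3.94, and its row with Mir369, Mir410 and Mir412 read 3.99 and 3.82. The last 2 were under background level in both arrays, which leaves their ratios of 0.23 and 0.16 with no measure of transcript. The Mir134 row lies under 6.55 in both arrays, so its near-equal signals do not show an unchanged transcript. No row names Mirg alone, so its own RNA cannot be told apart from these microRNA genes.

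Dlk1, the paternal protein-coding gene, had 1 row, at 5.08 after papain and 5.15 after PBS. Its ratio of -0.07 was the one value below 0 among the 10, and both signals lie at background level. The relatives and partners of Dlk1 in Notch signalling, 17 genes all measured, had a median ratio of -0.27 with 0 past 2-fold in either direction, 6 above 0 and 11 below. Their extremes were Hes1, a Notch target, at -0.71, and Nrarp, a feedback regulator, at 0.31. Dlk2, the closest relative of Dlk1, read 5.78 and 6.07.

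Snord116l1 was represented by 16 rows with the same pair of values, 7.11 after papain and 5.51 after PBS, a 3.02-fold higher signal. All 16 also name Snord116l2 and Gm26504, so no value belongs to Snord116l1 alone. The 15 rows that name Gm26504 alone had one pair of values too, 7.07 and 5.74, or 2.53-fold higher. Equal values in many rows are 1 measurement of a repeat family whose copies these probes do not separate.

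The other rows in the stretch of row numbers from Dlk1 to Dio3, the gene at the other end of the imprinted region, were read beside the members. The stretch held 79 rows, 7 of them member rows, which supplied 3 of the 9 past 2-fold upwards. Without the members it held 72 rows, 6 past 2-fold upwards (8.33%) and 0 downwards, beside 2.59% and 1.86% of all rows, with 59 ratios above 0, 13 below and a median of 0.31. Of these 72, 0 of 12 rows before Rian were past 2-fold, 4 of 27 from Rian to the row before Mir379, and 2 of 33 from Mir379 to Dio3. The medians of the 3 stretches were 0.40, 0.36 and 0.23. Of the 14 rows without members whose PBS signal was at or above background level, 2 were past 2-fold and 13 had ratios above 0. Neighbouring rows here can read the same long transcript, so they are not independent of each other or of the members.

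**Figure D2:**
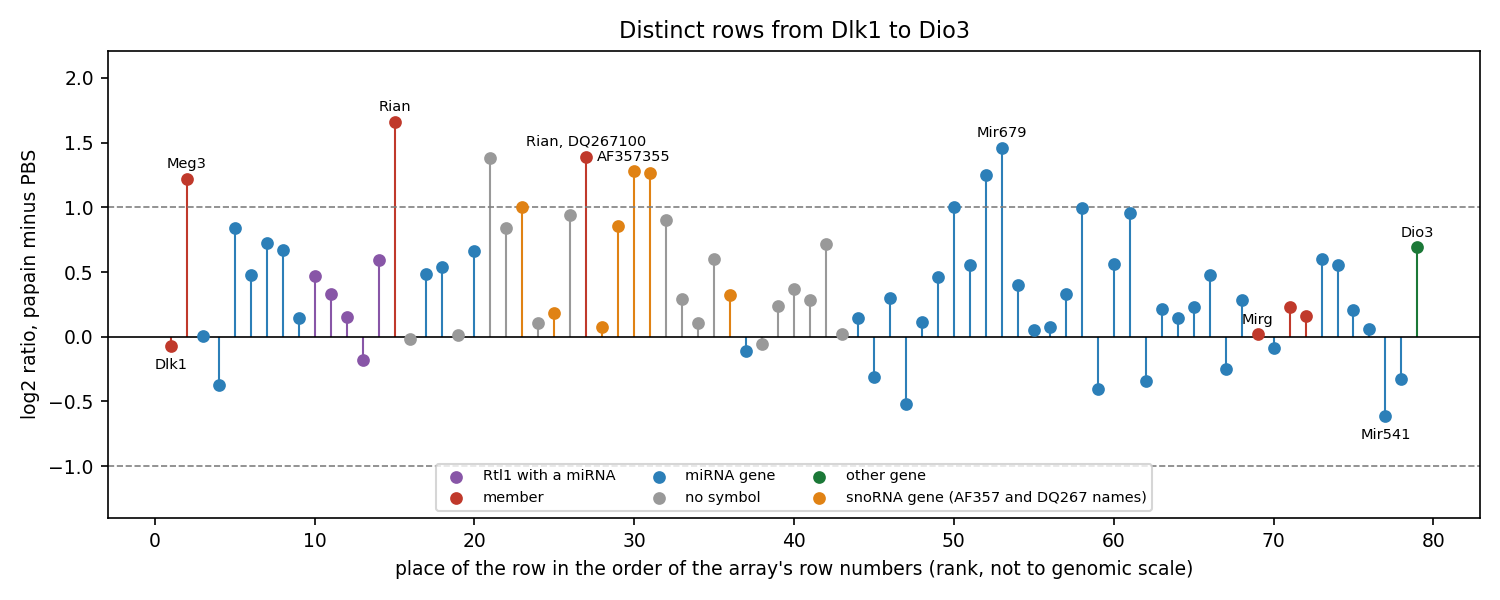
The log2 ratio, papain minus PBS (y axis), of 79 rows from Dlk1 to Dio3 in the order of their row numbers (x axis, a rank and not a distance), coloured by what each row names. The points above the upper dashed line at 2-fold lie mostly around Rian, with Mir494 and Mir679 further on, and no point lies under the lower dashed line.

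The snoRNA genes hosted near Rian had some of the higher ratios. AF357355 read 8.01 after papain and 6.73 after PBS, and AF357425 read 7.71 and 6.70. The folds were 2.43 and 2.00, and both PBS signals were above 6.55, so these sizes are less uncertain than the folds of Meg3 and Rian. AF357341 and AF357426, under background level in both arrays, had 0.32 and 0.19. The remaining snoRNA rows of the stretch, named after their values were seen, were those of DQ267102, at 6.30 after papain and 5.03 after PBS, and a pair of DQ267101, under background level in both arrays, with ratios of 0.07 and 0.86. The PBS signal of DQ267102 was under background level too. Of the list of 10 snoRNA names for this region 5 were measured, with a median of 0.32 and 2 at least 2-fold higher. The fifth, AF357399, has its place on chromosome 7 in RefSeq and read lower after papain, at 4.14 against 4.35. Of 74 rows that name a single Snord or Snora gene, 1.35% were at least 2-fold higher and 0% lower, with a median of 0.01.

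The microRNA genes of the region were mostly dim, and 2 were past 2-fold. Of 59 listed names 40 were measured in a row of their own, with a median ratio of 0.26, 31 above 0 and 9 below. Mir679 read 5.31 after papain and 3.85 after PBS, and Mir494 read 5.74 and 4.49, the 2 of the list at least 2-fold higher. Mir758, in the row 3 places before Mir679, read 6.03 and 5.03, just short of 2-fold, and Mir329 between them had 0.55. At the low end Mir541 had -0.61. Of the 40, 13 exceeded background level after papain and 7 after PBS, so most of these ratios, those of Mir679 and Mir494 included, rest on a PBS signal under it. Mir673 was the brightest, at 7.54 in both arrays. Of 438 rows that name a single microRNA gene elsewhere, 3.65% were at least 2-fold higher and 1.6% lower, with a median of 0.03.

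The mature microRNAs behind the rows that the results turn on are shown from RefSeq, 5′ to 3′, with the seed (bases 2 to 8) in capitals. They are those of Mir679 and Mir494, of Mir770 and Mir1906 in the Meg3 rows, and of Mir134 and Mir410 in the Mirg rows.
miR-679-5p: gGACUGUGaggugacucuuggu
miR-679-3p: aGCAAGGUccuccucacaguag
miR-494-5p: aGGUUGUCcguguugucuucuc
miR-494-3p: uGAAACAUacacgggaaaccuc
miR-410-5p: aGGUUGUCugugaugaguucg
miR-410-3p: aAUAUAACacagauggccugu
miR-770-5p: aGCACCACgugucugggccacg
miR-770-3p: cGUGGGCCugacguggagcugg
miR-1906: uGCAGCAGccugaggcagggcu
miR-134-5p: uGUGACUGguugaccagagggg
miR-134-3p: cUGUGGGCcaccuagucacc
The seed of miR-494-5p and that of miR-410-5p are the same letters. No comparison of their rows is made, since the Mir410 row was under background level in both arrays and the Mir494 row in the PBS array. Among 107 mature sequences of 57 genes of the region 99 seeds were distinct, and 8 were shared by 2 genes. The seeds of the other microRNAs printed here were not shared within the region. The array's rows are named after the microRNA genes, and signal from a mature microRNA, its precursor and the host RNA cannot be told apart.

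The stretch from Ipw to Snhg14, the noncoding RNAs that flank the Snord116 rows in row number, held 42 rows and 13 distinct value pairs. Of the 13, 7 were past 2-fold upwards and 0 downwards, beside 2.59% and 1.86% of all rows. The 7 were the Snord116l1 member row, the Gm26504 row and 5 rows without a gene symbol. Without the member row, 6 of 12 were past 2-fold, with 11 ratios above 0, and most of their PBS signals were under background level. Ipw, a noncoding RNA of the Prader-Willi region, read 4.12 after papain and 3.13 after PBS, both under background level. Snhg14, the long host transcript annotated across the cluster, read 6.11 and 5.60, a ratio of 0.51, beside 1.60 for the Snord116l1 rows. Both PBS signals lie under 6.55, so whether host and snoRNA differ in fold cannot be told from these values.

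**Figure D3:**
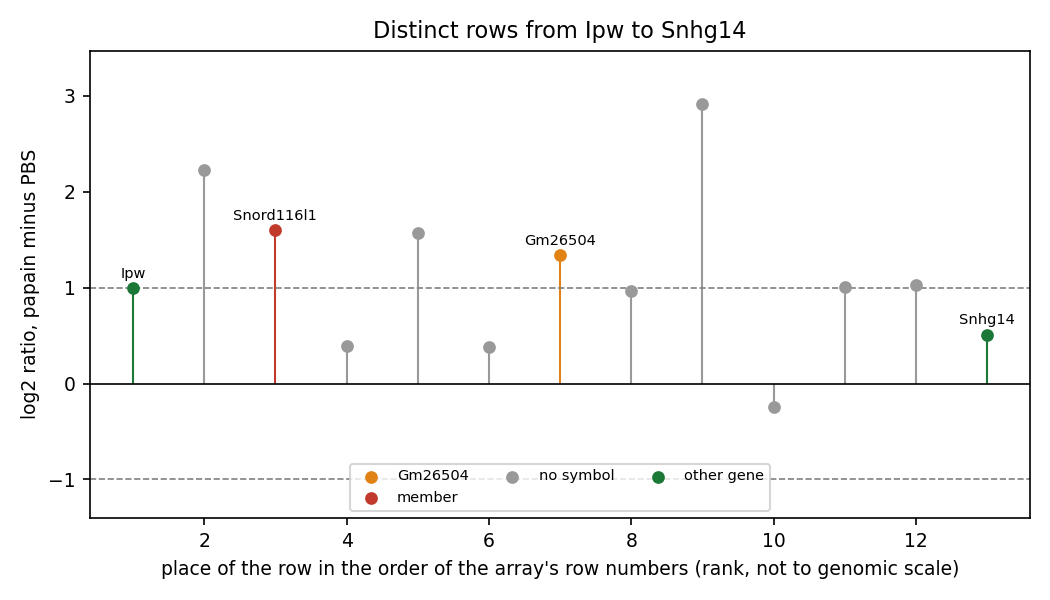
The log2 ratio, papain minus PBS (y axis), of 13 distinct rows from Ipw to Snhg14 in the order of their row numbers (x axis, a rank), each repeat family drawn once at its first place. The Snord116l1 point is at 1.60 and the Gm26504 point at 1.34, above the 2-fold line, while Snhg14 at 0.51 is under it.

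Protein-coding imprinted genes around the same clusters lay within 2-fold. Ube3a, the ubiquitin ligase gene of the region, read 9.11 and 8.82, Ndn read 6.94 and 6.69, and Magel2, under background level, read 4.76 and 4.60. The 2 rows of Snrpn, which also name Snurf, read 5.73 and 5.75 and 7.29 and 7.03. The list for this region also holds noncoding transcripts, Ipw and Snhg14 among them. Its 11 measured genes had a median of 0.25 with 0 past 2-fold, from Atp10a at -0.40 to Ipw at 0.99. At the chromosome 12 region, Dio3, a thyroid hormone deiodinase, read 4.99 after papain and 4.29 after PBS, under background level in both, and its antisense RNA Dio3os had 0.26. The 5 rows that pair Rtl1 with microRNAs in the stretch ran from -0.18 to 0.59. They lie between the Meg3 row with Mir770 and Rian, whose placed neighbours were all on the plus strand. Whether they read Rtl1 or the RNA that hosts the microRNAs cannot be told apart. The row of Rtl1 with Mir3071 in the minus-strand run had 0.33, with both signals under background level. The 23 measured genes that flank the imprinted region had a median of 0.04 with 0 past 2-fold. They ran from Wars at -0.54 to Degs2, under background level after PBS, at 0.36.

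Imprinted genes of other chromosome regions lay within 2-fold in both directions. The 48 measured had a median ratio of -0.03, 20 above 0 and 28 below, with 0 past 2-fold, and the background was 1.83% of 22180 named genes at least 2-fold higher and 0.73% lower. Grb10, an adaptor of growth factor receptors, was lowest at -0.52, and Phlda2, under background level in both arrays, was highest at 0.40. Of 15 measured long noncoding RNAs outside imprinting, Dlx6os1, an antisense RNA of the Dlx5 and Dlx6 locus, read 7.59 and 5.76 and was the 1 past 2-fold. The list's median was 0.19, its lowest ratio was Rmst at -0.36, and the abundant nuclear RNAs Malat1 and Neat1 had 0.21 and 0.09.

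The papain array also read higher for most vomeronasal and general neuron markers, with 9 of 10 and 11 of 13 ratios above 0. Mature olfactory neuron markers had 4 ratios above 0 and 7 below. Of 10 vomeronasal neuron markers 4 were past 2-fold upwards and 0 downwards, beside 1.83% and 0.73% of named genes, with a median of 0.82, and their summed linear signal was 3822 after papain and 2663 after PBS. H2-M1, Calr4, H2-M10.5 and H2-M10.1 were the 4, with ratios of 3.88, 3.35, 3.04 and 1.26, and Bcl11b was lowest at -0.04. The PBS signals of H2-M1, Calr4 and H2-M10.5 were under background level, and that of H2-M10.1 was under 6.55. The sizes of these folds are therefore uncertain. Of 285 vomeronasal receptor genes 199 were past 2-fold upwards and 1 downwards, beside the same shares of named genes. The 13 general neuron markers had a median of 0.33 and summed signals of 4139 and 2843, with 0 past 2-fold. They ran from Scg2 at -0.31 to Nefl, under background level in both arrays, at 0.96. Mature olfactory neuron markers, 11 measured, had -0.08, summed signals of 10395 and 13531, and 1 lower, S100a5 at -1.07, with Slc17a6 highest at 0.69. Such sums follow the brightest genes most. Here those were Stoml3, at 12.27 after papain and 12.71 after PBS, and S100a5, at 10.21 and 11.27, while Omp was near-equal. The part of any of these cells in the Meg3, Rian and Snord116 values was not tested.

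The other cell type lists had no member past 2-fold. Immature olfactory neuron markers had a median of 0.18, with 7 ratios above 0 and 1 below, from Neurog1 at -0.25 to Gng8 at 0.99. Ganglion and nerve neuron markers had -0.02, from Trpv1 at -0.36 to Prph at 0.52, and glia -0.12, from Pmp22 at -0.52 to Foxd3 at 0.54. Skeletal muscle markers had -0.15, from Actn3 at -0.55 to Ckm at 0.95, and fibroblast markers -0.46, from Col1a2 at -0.78 to Lum at -0.17. Adipocyte markers had -0.31, from Fabp4 at -0.97 to Cidec at 0.56, and pituitary markers 0.16, from Lhb at -0.74 to Pomc at 0.52. Olfactory support and gland markers had 0.09, from Cyp1a2 at -0.07 to Aldh1a7 at 0.42. Among these extremes, Neurog1 and Trpv1 were under background level in both arrays, Ckm after PBS and Fabp4 after papain. Of the sex-linked genes, Xist had 0.41 and Eif2s3y, under background level in both arrays, had 0.49, the highest of 4.

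**Figure D4:**
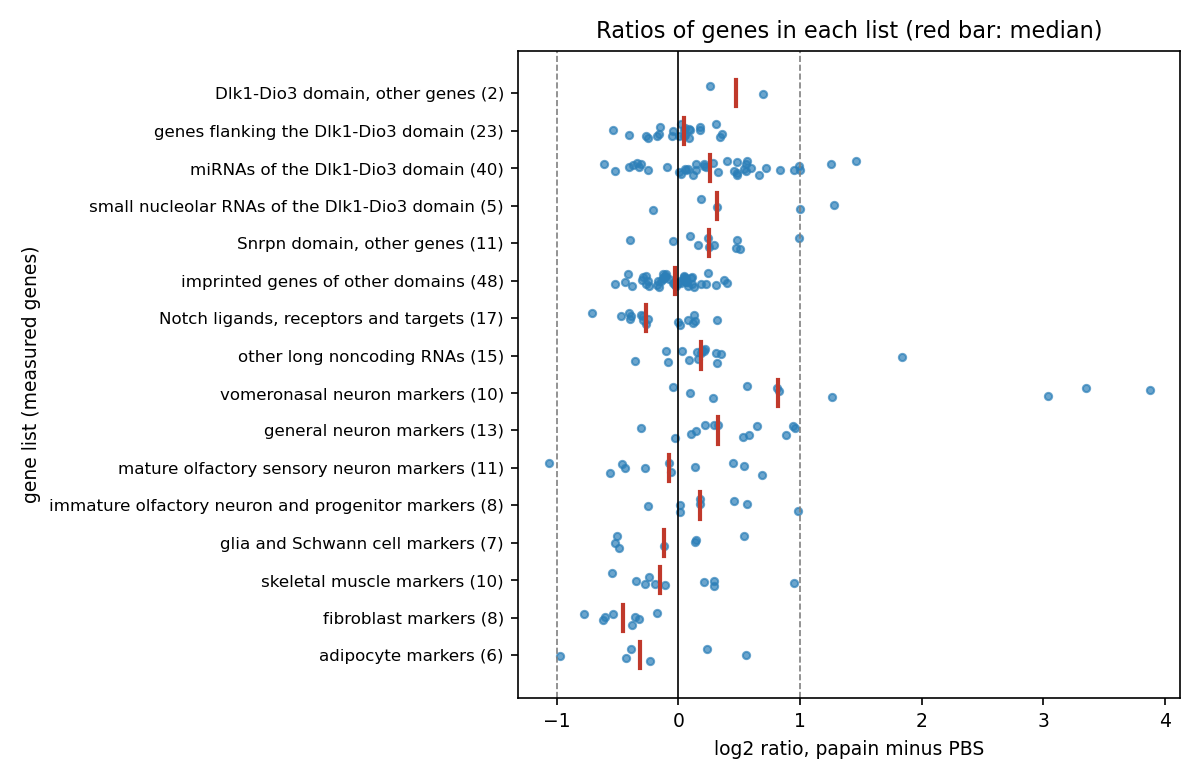
The log2 ratio, papain minus PBS (x axis), of each measured gene of 16 lists (y axis), with the median as a red bar and dashed lines at 2-fold. The vomeronasal neuron list has its median at 0.82 and reaches furthest to the right, the imprinted genes of other domains sit around 0, and the fibroblast list lies left of 0.

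The genes nearest to each transcript in the pair of signals were found by distance over 2 arrays, a likeness that says nothing of function. For Rian they were Stc1 at 7.18 and 5.45, Frmd3 at 7.16 and 5.43, and Scgn, a calcium-binding protein gene of neuroendocrine cells, at 7.16 and 5.60. For the row of Meg3 alone they were 1700044C05Rik, Gm4983 and Mtfr2, for Mirg Ifitm1, Trmt12 and Dact1, and for Dlk1 Rapsn, Olfr624 and Epb42. The largest of these distances was 0.092 log2 units, for Scgn.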

How the data were processed

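Total RNA of 2 pooled nasal mucosa specimens, papain and PBS at day 3, was measured on 1 Affymetrix Mouse Gene 2.0 ST array each. The authors deposited log2 values for each transcript cluster (the scale was judged from their range), made with Transcriptome Analysis Console 4.0 per the submitters' processing notes. Which background correction, summarisation and normalization they used is not given in the sources, and an equalising normalization would hide a difference in total RNA. Gene names came from the platform annotation: 23521 rows had 1 symbol, 1814 several and 16010 none, and 23328 gene IDs matched RefSeq with 0 different symbols. The members and lists were chosen with earlier results of these data known. Lists used the brightest single-symbol row of a gene, with no floor. All members past 2-fold up to 4, otherwise the highest and lowest, were named per list, and further names are marked or were given for background. No test was made, and precision is limited by the number of arrays. Alternatives were quantile normalization, centring, loess with a span of 0.3, averaged rows, other thresholds, rows naming a member alone, repeated rows and a floor. Counting was checked on simulated data. Python 3.11.15, pandas 2.3.3, numpy 2.4.6, statsmodels 0.14.6 and matplotlib 3.10.9 were used.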

Additional observations from a re-analysis of the deposited data

Results flagged for a closer look

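Rows without a gene symbol entered the counts over stretches and over all rows, but no comparison of named transcripts, and 5 of them near these transcripts had a papain signal above background level and at least 2-fold above the PBS signal. In the stretch from Ipw to Snhg14, 4 such rows had log2 ratios of 2.92 (6.72 after papain and 3.80 after PBS), 2.23 (6.60 and 4.37), 1.57 (7.03 and 5.46) and 1.03 (5.71 and 4.69). In the stretch from Dlk1 to Dio3, 1 such row, after Rian and Mir370 in row number, had 1.38 (5.67 and 4.28). The PBS signals of 4 of the 5 were under background level, so these ratios are no measure of a fold, and the rows were picked by their papain signal and their ratio. What these rows measure is not named here.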

How the results depend on the processing

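No paired analysis was possible because each group is 1 array, and no replicate could be left out. A value was taken as moved when it shifted by more than 0.33, the SD of 1 row's ratio. Of 144 recomputed values 134 were within that spread, or within 1.5 times for counts. For a median over many genes the SD of 1 row is a wide allowance, so a list median within it may still have shifted. Over the alternatives Rian ran from 1.53 to 1.69, Snord116l1 from 1.60 to 1.63, Mirg from 0.02 to 0.14 and Dlk1 from -0.16 to -0.06. Meg3 moved from 0.30 for the row that names it alone to 0.89 as a mean over its rows. Both values draw on rows whose target is unclear. The row with Mir770, the one whose placed neighbours were all on the strand of Meg3, had 1.22 as deposited. The 5 rows at least 2-fold higher were still 5 after quantile normalization, centring and loess and at 1.5-fold. They were 2 at 3-fold, 1 among rows naming a member alone, 20 with every repeated row counted and 4 of 5 rows above a floor of 6.22, a floor that these 4 passed by their papain signal alone, so it is no check of the count. At 1.5-fold 3246 rows of all (8.01%) were higher and 2808 (6.93%) lower, and at 3-fold 396 (0.977%) and 168 (0.414%). The pituitary list's median turned to -0.70 and the ganglion list's to 0.10 above the floor. No other list's median changed sign. Above the floor the microRNA list's median went from 0.26 to 0.52 and the general neuron list's from 0.33 to 0.56, both counted as within the spread. The snoRNA list's was 1.14 above the floor, from AF357355 and AF357425 alone, the 2 already named as at least 2-fold higher. Signals close to background limit the ratios of Dlk1, of Meg3 alone, of the Mirg rows and of most microRNA genes.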
